A study of Mus musculus with 7 samples.

Results

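The genes Cldn5, Flt1, Pecam1, Cdh5, Tek, Slco1a4, Abcb1a, Ly6a, Ly6c1 and Itm2a, which mark brain endothelial cells or serve their barrier, were followed in RNA-seq libraries of mouse amygdala astrocyte preparations. They were taken by symbol, and all 10 were found among the 35976 genes of the count table. All 10 also passed the filter on low counts, which left 14936 genes. The sgEgfr group had 3 libraries from amygdala cells that received a guide RNA against Egfr, the epidermal growth factor receptor gene, and the sgRosa group had 4 libraries with the control guide that the labels call sgRosa. In both groups the guides came with an adeno-associated virus whose Cas9 was driven by the astrocyte promoter GfaABC1D, in male C57BL/6J mice whose age is not stated. Both groups had more than 2 weeks of viral expression, 7 days of tube restraint, fear conditioning on 1 day and extinction training on 3 days. The tissue was digested with papain and enriched for astrocytes with beads that bind the surface antigen ACSA-2, and each library started from 5 ng of total RNA. Nothing stated that each library was a separate mouse, so p-values measure only the spread between these samples, which may be technical.

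Endothelial cells line the blood vessels, and in the brain they form the blood-brain barrier. Tight and adherens junctions seal neighbouring cells, efflux pumps and uptake carriers decide which solutes cross, and receptors for vascular endothelial growth factors and angiopoietins hold the vessels in shape. Astrocyte endfeet cover these vessels and supply some of the ligands.

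Libraries held 5852870 to 22579222 counts, so that 3 counts stood for 0.133 to 0.513 CPM (counts-per-million). Between sgRosa 3 and sgRosa 4 the chi-square per degree of freedom was 1.04, close to sampling noise, over 13563 genes, where the other 20 pairs of libraries gave 14.8 to 158. Both were therefore counted as 1 sample, called sgRosa 3+4, and each group had 3 samples. Egfr itself had 10.7, 5.69 and 8.04 CPM in sgEgfr 1 to 3, against 13.3, 2.87 and 10.6 CPM in sgRosa 1, 2 and 3+4, with a log2 fold change of -0.13 (95% confidence interval -1.39 to 1.14). Cas9 edits need not lower an mRNA, so this count is no check of the guide, and its sign changed when single samples were left out. The 12 astrocyte markers took 3545 to 8608 CPM in the 6 samples, and 12 oligodendrocyte markers took 72270 to 143800, so oligodendrocyte transcripts were abundant.

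The endothelial genes took a small share of the counts in every sample. By mean CPM the 10 stood between percentile 14.9 (Cdh5) and percentile 46.7 (Itm2a) of all genes tested. Together the 10 took 79.0, 75.1 and 62.0 CPM (here, as for every list's sum, over the library's unscaled total) in sgEgfr 1 to 3, against 63.5, 41.1 and 37.3 in sgRosa 1, 2 and 3+4. The 95% Wilson intervals, which cover counting error only, were 74.7 to 83.7, 71.1 to 79.3 and 58.8 to 65.3 for the sgEgfr samples, and 59.5 to 67.8, 38.3 to 44.1 and 34.4 to 40.5 for the sgRosa samples. The groups thus overlapped, since sgRosa 1 stood at the level of sgEgfr 3, while sgRosa 2 and sgRosa 3+4 lay below all other samples. The mean share was 72.0 ± 8.91 CPM in sgEgfr and 47.3 ± 14.2 in sgRosa (SD, n = 3 each), a ratio of 1.52. In bulk samples, fewer cells of a type and less RNA per cell cannot be told apart. Before they were summed, sgRosa 3 had 38.3 CPM and sgRosa 4 had 35.7.

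**Figure D1:**
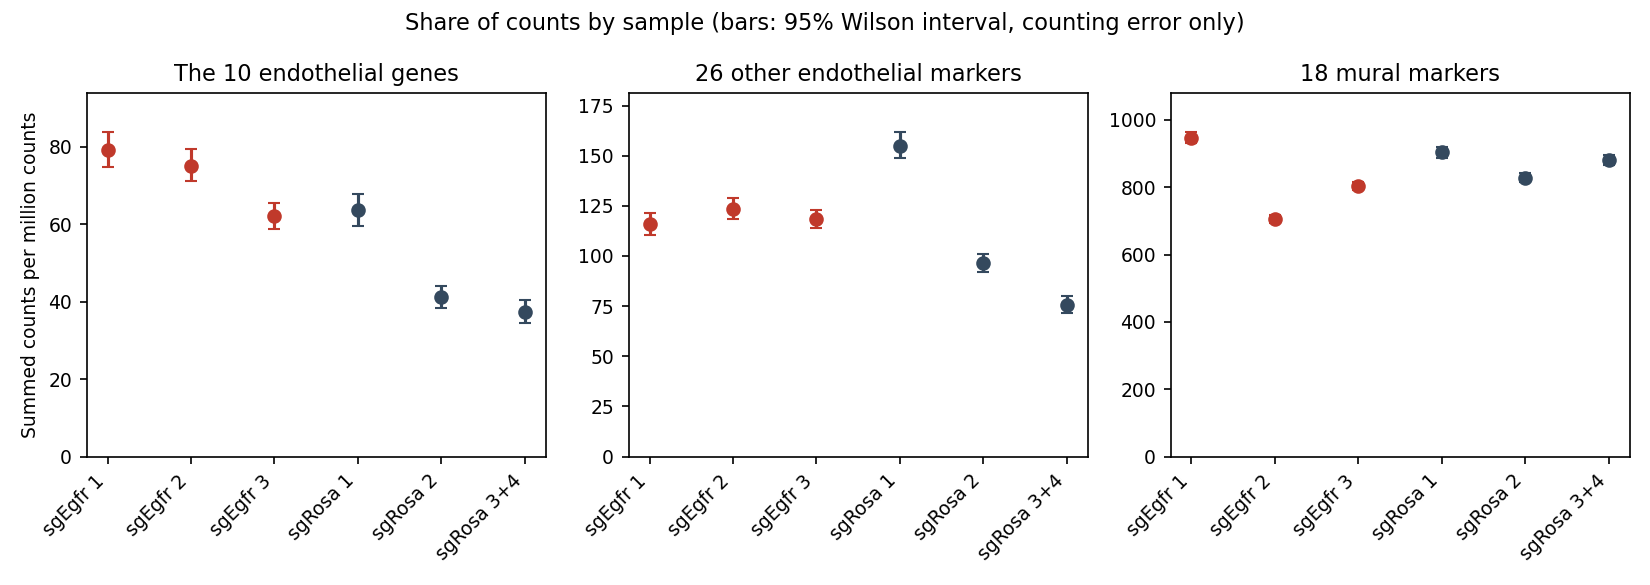
Summed CPM (vertical axis) in each of the 6 samples (horizontal axis) for the 10 endothelial genes, 26 other endothelial markers and 18 mural markers, with 95% Wilson intervals as bars. The share of the 10 genes ran from 62.0 to 79.0 in sgEgfr and from 37.3 to 63.5 in sgRosa, whereas the 26 other endothelial markers were highest in sgRosa 1 (155.0).

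Pecam1, Cdh5 and Cldn5 encode proteins of the contacts between endothelial cells. Pecam1, a cell adhesion molecule also found on platelets and leukocytes (chr11:106654217-106750628, GRCm38), had 5.20, 7.79 and 4.37 CPM in sgEgfr 1 to 3, against 7.62, 3.61 and 2.93 CPM in sgRosa 1, 2 and 3+4. CPM of single genes are relative to totals scaled with the trimmed mean of M values (TMM). Cdh5, the adherens junction protein VE-cadherin (chr8:104101625-104144511), had 3.23, 2.09 and 2.19 CPM in sgEgfr, against 3.39, 0.836 and 0.636 CPM in sgRosa. Cldn5, the main claudin of blood-brain barrier tight junctions (chr16:18776847-18778262), had 4.50, 6.09 and 3.54 CPM in sgEgfr, against 3.67, 1.31 and 1.84 CPM in sgRosa. In all 3 genes sgRosa 1 was the highest sgRosa sample and lay within or above the range of the sgEgfr samples, and the groups overlapped. The log2 fold changes of sgEgfr over sgRosa were 0.30 for Pecam1 (SE 0.45), 0.64 for Cdh5 (SE 0.66) and 1.05 for Cldn5 (SE 0.47, 95% confidence interval -0.04 to 2.14), none of them called by edgeR (adjusted p = 0.997 each). Cdh5 rested on 10 to 51 counts per sample and overlaps the antisense gene Gm29682, which was listed at 0 in every library. Without sgRosa 1 the log2 fold changes were 0.82, 1.75 and 1.58 for Pecam1, Cdh5 and Cldn5, and without sgRosa 3+4 they were 0.05, 0.26 and 0.93.

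The growth factor receptor genes Flt1 and Tek had log2 fold changes of opposite sign. Flt1, which encodes VEGF receptor 1, binds VEGF-A and placental growth factor and also makes a soluble decoy form (chr5:147561604-147726011). Its level was 12.4, 15.5 and 11.9 CPM in sgEgfr 1 to 3, against 7.27, 8.36 and 7.25 CPM in sgRosa 1, 2 and 3+4. Every sgEgfr sample was above every sgRosa sample, as in 3.76% of all genes tested, and the sgRosa samples lay close together. Flt1 was not called, at a log2 fold change of 0.80 with an SE of 0.24 (interval 0.24 to 1.35, adjusted p = 0.997 in edgeR). Tek, which encodes the angiopoietin receptor TIE2 (chr4:94739289-94874976), had 3.99, 2.29 and 2.84 CPM in sgEgfr, against 7.20, 3.35 and 3.18 CPM in sgRosa. It was the only 1 of the 10 with a negative log2 fold change, -0.59 (SE 0.44, interval -1.61 to 0.44, adjusted p = 0.997 in edgeR). The groups overlapped in sgEgfr 1, and the value was -0.10 without sgRosa 1, the highest sample.

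Both transporters overlapped between the groups. Slco1a4, an uptake carrier of organic anions (chr6:141805440-141856199), had 11.5, 10.7 and 8.83 CPM in sgEgfr 1 to 3, against 9.53, 7.42 and 4.83 CPM in sgRosa 1, 2 and 3+4. Abcb1a, the efflux pump P-glycoprotein (chr5:8660077-8748575), had 3.61, 4.97 and 5.11 CPM in sgEgfr, against 5.15, 1.15 and 1.40 CPM in sgRosa. For Abcb1a the highest value of all was in sgRosa 1, and the other sgRosa samples were the lowest. The log2 fold changes were 0.51 for Slco1a4 (SE 0.32) and 0.84 for Abcb1a (SE 0.60), not called (edgeR adjusted p = 0.997 each), and that of Abcb1a was 1.84 without sgRosa 1 and 0.48 without sgRosa 2. Their close paralogs were counted apart. Abcb1b, a second P-glycoprotein gene whose coding sequence is 87.6% identical, had 34, 20 and 41 counts in sgEgfr 1 to 3, against 24, 31 and 43 in sgRosa 1, 2 and 3+4, with a log2 fold change of -0.20. Slco1a5 had 0, 0 and 59 counts in sgEgfr, against 1, 1 and 18 in sgRosa, and Slco1a6 was listed at 0 in all 6 samples. Reads that fit both copies could be split or dropped by the counting, whose rule is not stated. The predicted genes Gm42684 and Gm42686 overlap Abcb1a in the GENCODE M21 annotation.

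The surface proteins Ly6a, Ly6c1 and Itm2a had no overlap between the groups. Ly6a, which encodes the GPI-anchored protein SCA-1 (chr15:74994877-74998031), had 5.26, 6.68 and 5.07 CPM in sgEgfr 1 to 3, against 3.32, 2.61 and 2.99 CPM in sgRosa 1, 2 and 3+4. Ly6c1, which encodes a GPI-anchored protein of the same family (chr15:75044018-75048830), had 4.25, 10.2 and 4.11 CPM in sgEgfr, against 3.39, 1.88 and 2.29 CPM in sgRosa. Itm2a, a membrane protein typical of brain endothelium (chrX:107397099-107403376), had 21.1, 17.7 and 13.2 CPM in sgEgfr, against 13.1, 8.88 and 10.1 CPM in sgRosa. For Ly6c1 the sgEgfr mean leaned on sgEgfr 2, and for Itm2a sgEgfr 3 and sgRosa 1 were almost level. The log2 fold changes were 0.93 for Ly6a (SE 0.31, 95% confidence interval 0.22 to 1.64), 1.295 for Ly6c1 (SE 0.47, interval 0.19 to 2.40) and 0.70 for Itm2a (SE 0.27, interval 0.07 to 1.33). None was called over all genes (edgeR adjusted p = 0.997 each). Without sgEgfr 2 the value for Ly6c1 was 0.72.

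Ly6c1 has a near copy, Ly6c2, a gene of monocytes (chr15:75108158-75111970), and the coding sequences from GENCODE M21 are shown because they decide which reads can be told apart. Both lie on the minus strand and hold 393 bases without the stop codon, which differ at 9. Bases 1 to 300 are written 5′ to 3′, with the 7 differing bases among them in capitals.
Ly6c1: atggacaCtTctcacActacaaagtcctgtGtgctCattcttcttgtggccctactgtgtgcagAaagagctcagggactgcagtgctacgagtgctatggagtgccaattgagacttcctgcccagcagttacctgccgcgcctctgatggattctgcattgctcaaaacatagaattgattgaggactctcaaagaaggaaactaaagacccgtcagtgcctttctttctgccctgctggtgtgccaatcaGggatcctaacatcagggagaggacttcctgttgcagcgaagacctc
Ly6c2: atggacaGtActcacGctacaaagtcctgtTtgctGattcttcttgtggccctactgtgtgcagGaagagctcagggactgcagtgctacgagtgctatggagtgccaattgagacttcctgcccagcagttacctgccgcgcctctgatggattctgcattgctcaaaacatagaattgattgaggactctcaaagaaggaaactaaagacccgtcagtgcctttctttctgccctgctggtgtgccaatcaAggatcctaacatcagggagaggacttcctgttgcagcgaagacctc
They are 97.7% identical, and 31.7% of all stretches of 50 bases in the Ly6c1 transcript compared also occur in that of Ly6c2. Long runs without a capital are the parts in which a read fits both genes. Ly6c2 had 4, 0 and 0 counts in sgEgfr 1 to 3, against 0, 2 and 0 in sgRosa 1, 2 and 3+4, while Ly6c1 had 67, 156 and 94 counts in sgEgfr, against 48, 36 and 36 in sgRosa. Ly6c2 was thus at or near 0 in both groups, and how reads that fit both genes were counted is not known. Ly6a and Ly6c1, whose coding sequences are 81.8% identical, shared no stretch of 50 bases.

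**Figure D2:**
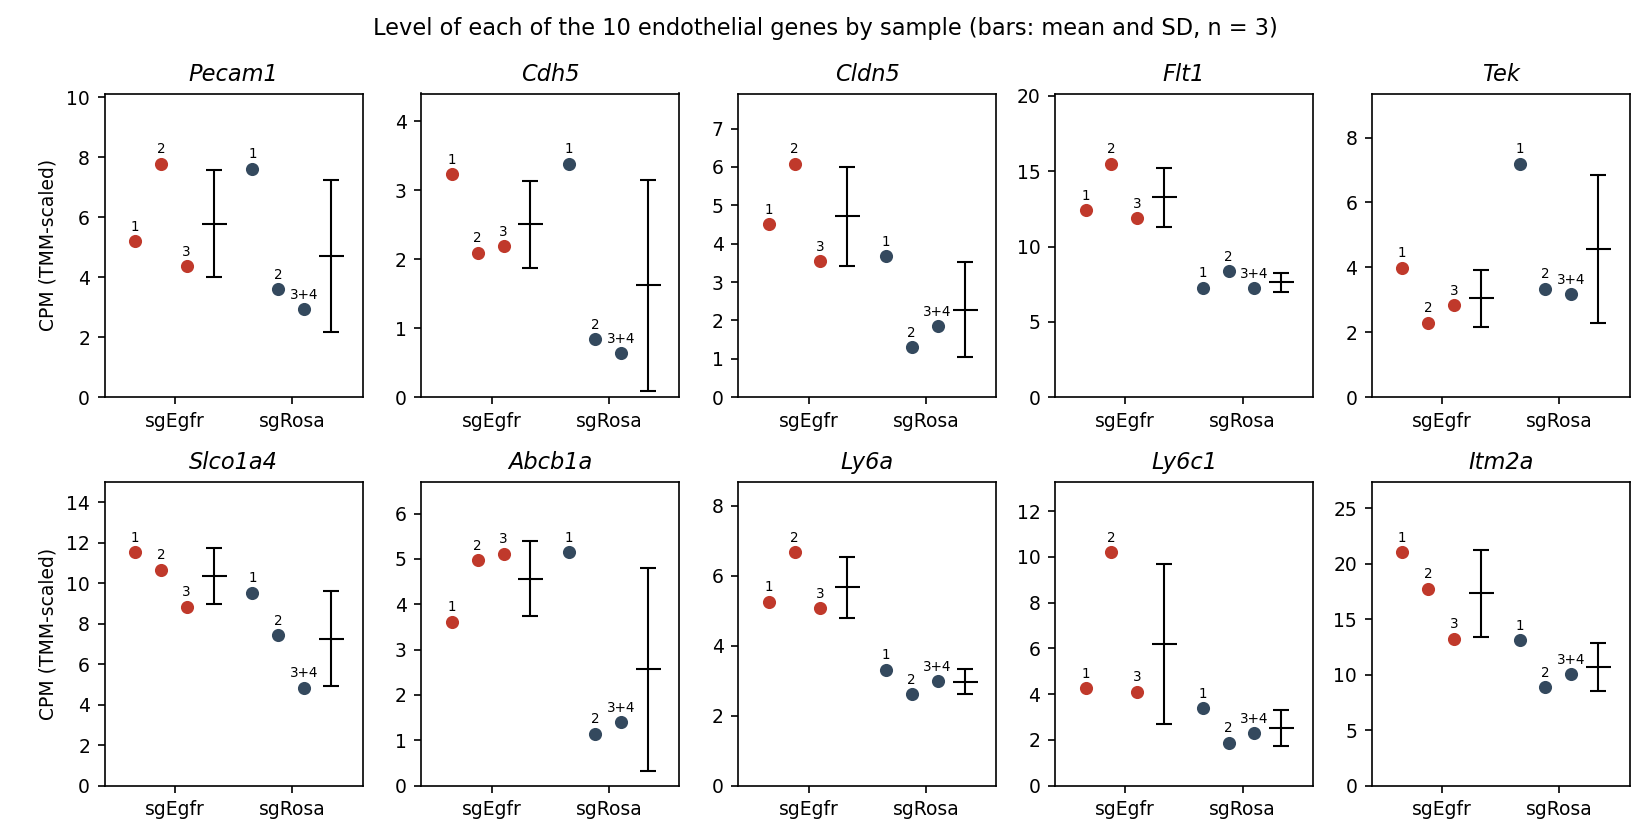
TMM-scaled CPM of each of the 10 genes (vertical axis, 1 panel per gene) in the 3 sgEgfr and 3 sgRosa samples (horizontal axis), with sample numbers above the points and the mean and SD beside them. In Flt1, Ly6a, Ly6c1 and Itm2a every sgEgfr sample lay above every sgRosa sample, and in the other 6 genes the groups overlapped.

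At the threshold of 0.05 on edgeR's adjusted p, 0 of the 10 were called, and of all 14936 genes 0% were called higher and 0% lower in sgEgfr. Without adjustment, 401 genes (2.68%) had a p under 0.05 in edgeR's quasi-likelihood test. Among these were 4 of the 10, all higher in sgEgfr, against 1.31% of all genes in that direction. They were Flt1, Ly6a, Ly6c1 and Itm2a, with unadjusted edgeR p-values of 0.0111, 0.0172, 0.0274 and 0.0332. The count of the 10 that were lower at this p was 0, against 1.37% of all genes. The same 4 genes had sgEgfr samples all above sgRosa samples, against 3.76% of all genes. A positive log2 fold change was found in 9 of the 10, against 52.9% of all genes, and a negative value in 1, Tek, against 47.1%. The median of the 10 was 0.75 against 0.02 over all genes. The 10 were chosen with earlier results of these data known, so these counts are a description. The number at an unadjusted p under 0.05 was 1 without sgEgfr 2, 2 without sgRosa 2, 2 without sgRosa 3+4 and 7 without sgRosa 1. DESeq2 and limma-voom also called 0 of the 10, with 5 each at an unadjusted p under 0.05.

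Other endothelial markers were set beside the 10. The 26 of them took 115.7, 123.4 and 118.2 CPM in sgEgfr 1 to 3, against 155.0, 96.4 and 75.8 in sgRosa 1, 2 and 3+4, so that the highest and the lowest values were both in sgRosa. The ratio of the mean shares was 1.09, where the 10 genes gave 1.52; the difference between these ratios was not tested. Of 23 tested, 17 had positive log2 fold changes, against 52.9% of all genes, with a median of 0.30. In 0 of the 23 sgEgfr samples were all above sgRosa, against 3.76% of all genes, and in 0 all below, against 3.85%. An unadjusted edgeR p under 0.05 was found in 0 of the 23, against 2.68% of all genes. The 4 with the smallest p were the secreted vascular factor Egfl7 (0.58, SE 0.39), the adhesion receptor Adgrf5 (0.60, SE 0.42), the adhesion molecule Icam2 (1.05, SE 0.75, and 1.73 without sgRosa 1) and the guidance receptor Robo4 (0.71, SE 0.67). Kdr, the main signalling receptor of VEGF-A and thus the partner of Flt1, had 11.3, 10.7 and 14.6 CPM in sgEgfr, against 13.6, 15.5 and 10.6 CPM in sgRosa, a log2 fold change of -0.11 (SE 0.25). Tie1, the orphan receptor that pairs with TIE2, had 2.73, 6.54 and 2.32 CPM in sgEgfr, against 6.84, 0.470 and 0.890 CPM in sgRosa (log2 fold change 0.50, SE 0.95, and 2.50 without sgRosa 1). Tie1 thus had its highest value in sgRosa 1, as Tek did, but Tek stayed above 3 CPM in the other sgRosa samples.

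**Figure D3:**
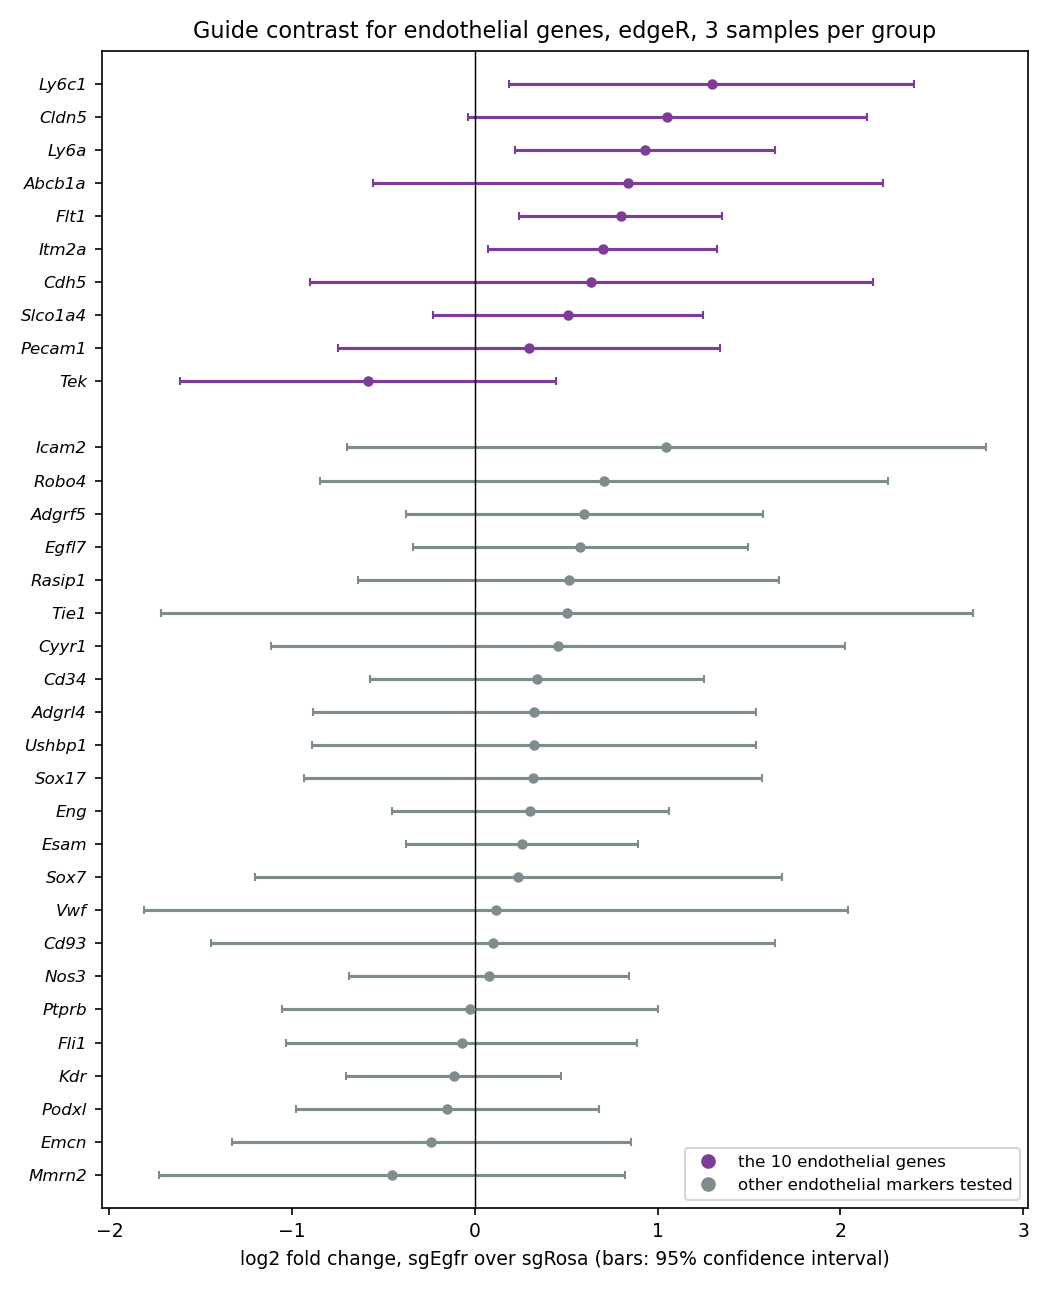
Log2 fold change of sgEgfr over sgRosa (horizontal axis) with 95% confidence intervals from edgeR for the 10 genes and for the 23 tested genes among the other endothelial markers (vertical axis). The intervals of Ly6c1, Ly6a, Flt1 and Itm2a do not reach 0, and Tek, at -0.59, is the only negative value among the 10.

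The ligands of the receptors were measured in the same libraries. Vegfa, the ligand of FLT1 and KDR that astrocytes can supply, had 4.69, 2.16 and 3.76 CPM in sgEgfr 1 to 3, against 5.15, 6.06 and 7.00 CPM in sgRosa 1, 2 and 3+4. Every sgEgfr sample was below every sgRosa sample, as in 3.85% of all genes, with a log2 fold change of -0.78 (SE 0.37). Angpt1, the activating ligand of TIE2, had 11.3, 11.6 and 11.3 CPM in sgEgfr, against 6.84, 4.34 and 11.1 CPM in sgRosa (log2 fold change 0.62, SE 0.36). Angpt2, a context-dependent antagonist of TIE2, had 24, 20 and 31 counts in sgEgfr, against 10, 22 and 0 in sgRosa, and Pgf, which encodes placental growth factor, had a log2 fold change of 0.14. Of 17 tested VEGF and angiopoietin genes, 10 were positive, with a median of 0.14. In 3 of the 17 sgEgfr samples were all above sgRosa, against 3.76% of all genes, and in 1 all below, against 3.85%. Of the 17, only Flt4, the VEGF-C receptor, had an unadjusted edgeR p under 0.05, against 1.31% of all genes higher in sgEgfr. Flt4 had 20, 15 and 38 counts in sgEgfr, against 2, 0 and 4 in sgRosa. Its counts were too few in sgRosa for a firm fold change (3.30 on the log2 scale, SE 0.87, edgeR adjusted p = 0.997), and the value was 2.67 without sgRosa 2 and 4.24 without sgRosa 3+4.

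Genes of junctions and of transport outside the 10 gave a mixed picture, with 0 called. Of 17 tested junction and adhesion genes, 10 were positive, with a median log2 fold change of 0.07. Those with the smallest p were F11r, the junctional adhesion molecule JAM-A (0.84, SE 0.37), and Ctnnd1, Vcl and Jup, which encode cytoplasmic partners of adherens junctions (-0.27, -0.20 and -0.23). Tjp1, the scaffold protein ZO-1, had -0.10 (SE 0.19). Ocln, the tight junction protein occludin, had 4.18, 3.86 and 44.6 CPM in sgEgfr, against 9.39, 3.81 and 15.6 CPM in sgRosa, so its value of 0.88 came from sgEgfr 3 and was -1.25 without it. The ependymal markers Foxj1, Dynlrb2 and Rarres2 were also highest in sgEgfr 3 (295.9, 105 and 148.9 CPM) and next in sgRosa 3+4 (128.3, 35.4 and 58.5). The sum of all 10 ependymal and choroid plexus markers was highest in sgRosa 2 (4394 CPM). The part of such cells in the Ocln values was not tested. Of 30 tested transporter and transcytosis genes, 20 were positive, with a median of 0.11. In 4 of the 30 sgEgfr samples were all above sgRosa, against 3.76% of all genes, and in 0 all below, against 3.85%. Mfsd2a, a lipid carrier of the barrier, had 51.4, 35.1 and 39.6 CPM in sgEgfr, against 13.97, 21.0 and 32.2 CPM in sgRosa (log2 fold change 0.91, SE 0.31). Slco1c1, a thyroid hormone carrier of barrier endothelium and astrocytes, had 18.1, 15.97 and 18.1 CPM in sgEgfr, against 10.6, 9.93 and 13.4 CPM in sgRosa (0.62, SE 0.22). Slc2a1, the glucose carrier GLUT1, had 0.57 (SE 0.26) with overlap, and Abcg2, an efflux pump, had 0.54 (SE 0.26) without overlap. Per kilobase of exon, Mfsd2a and Slc2a1 had means of 18.7 and 48.8 CPM in sgEgfr, where Itm2a, the highest of the 10, had 9.95. Which cells the transcripts of these carriers came from was not tested.

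Genes of Wnt/β-catenin signalling, a pathway that induces barrier properties, were measured too. Of 24 tested, 14 were positive, with a median log2 fold change of 0.06, and among those with the smallest p were Tcf7 (-1.40, SE 0.55), Ppard (-0.38) and the co-receptor gene Lrp6 (-0.19). Tcf7, a transcription factor of the pathway that T cells also express, rested on 6 to 25 counts per sample. Of 13 tested genes that activated endothelium induces, 10 were positive, with a median of 0.24. Icam1, a leukocyte adhesion molecule, had 6.28, 12.96 and 1.53 CPM in sgEgfr, against 2.26, 2.04 and 0.954 CPM in sgRosa (1.98, SE 0.74, and 1.13 without sgEgfr 2), with overlap. Ackr1, a chemokine-binding protein of venules, had 7, 81 and 27 counts in sgEgfr, against 11, 10 and 6 in sgRosa, a value of 2.03 that was 0.55 without sgEgfr 2. Nfkbia and Cebpd, which inflammatory signals induce, had 0.83 and 0.47.

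Ly6a is also known as a gene that interferons induce and that blood cells express. Of 10 tested genes of the Ly6 family, which include Ly6a and Ly6c1, 7 were positive, with Ly6e at 0.46 (SE 0.26), Lypd1 at 0.54 and Cd59a at 0.37. Of 23 tested interferon-stimulated genes, 20 were positive at a median of 0.12, with Ifitm2 at 0.67, Irf7 at 1.00, Rtp4 at 0.83 and Mx2 at 0.68. Their summed level was 238.6 to 280.0 CPM in sgEgfr and 212.4 to 257.3 in sgRosa, and Isg15 and Mx1 had 3 counts or fewer in every sample. The 8 T cell markers took 1.29 to 2.52 CPM in sgEgfr and 3.37 to 6.20 in sgRosa, and 4 of them were at 0 in at least 1 sample. Only 2 of the 8, Lat and Lck, passed the filter on low counts, and they gave 40 and 26 of the 88 counts in sgRosa 1. In both, sgEgfr samples were all below sgRosa, against 3.85% of all genes. The part of interferon signalling in the values of Ly6a was not tested.

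Markers of other cells of the vessel wall and of the tissue stood beside these values as follows. The 18 mural markers, which name pericytes and smooth muscle cells, took 947.4, 706.4 and 803.5 CPM in sgEgfr 1 to 3, against 903.6, 829.1 and 882.1 in sgRosa 1, 2 and 3+4. This sum leaned on few genes, since 1 of the 18 gave 4980 of the 14196 counts in sgEgfr 1. Mural genes tested numbered 16, with 7 positive and a median of -0.05. Those with the smallest p were all negative, Anpep (-0.67), Atp13a5 (-0.55), Abcc9 (-0.59) and Pdgfrb (-0.46). In 2 of the 16, Anpep and Abcc9, sgEgfr samples were all below sgRosa, against 3.85% of all genes, and in 0 all above, against 3.76%. The 11 fibroblast markers took 96.7, 83.8 and 83.8 CPM in sgEgfr, against 78.2, 84.1 and 66.6 in sgRosa, a ratio of the means of 1.16. All 11 were tested, with 6 positive and a median of 0.29. In 2, the growth factor gene Igf2 (0.95) and the matrix gene Lum (0.84), sgEgfr samples were all above sgRosa, against 3.76% of all genes. Igf2 alone of the 11 had an unadjusted edgeR p under 0.05, against 1.31% of all genes higher in sgEgfr. The 12 blood cell markers, mostly haemoglobin, ran from 16.9 to 821.0 CPM in sgEgfr and from 5.56 to 627.1 in sgRosa. Their lowest value was in sgRosa 1, the sgRosa sample with the highest share of the 10 endothelial genes (63.5 CPM). Their highest was in sgEgfr 1, which had the highest share of the 10 among all samples (79.0 CPM). Neuron markers were positive in 11 of 11 tested genes, with a median of 0.56, and took 427.4 to 545.7 CPM in sgEgfr and 308.3 to 472.2 in sgRosa. Of these 11, 3 had an unadjusted edgeR p under 0.05 (Eno2, Gad1 and Elavl4), against 1.31% of all genes higher in sgEgfr. Samples of sgEgfr were all above sgRosa in 3 (Eno2, Elavl4 and Stmn2), against 3.76% of all genes. Microglia markers were positive in 12 of 12, with a median of 0.41 and with 210.0 to 455.9 CPM in sgEgfr and 165.4 to 337.8 in sgRosa. The part of other cell types in the values of the 10 genes was not tested.

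Levels of the 10 were compared with each other as CPM per kilobase of annotated exon, averaged over all 6 samples. Itm2a was highest at 8.04 ± 2.65 CPM per kilobase (SD, n = 6) and above Ly6a in 6 of 6 samples. Ly6a (3.59 ± 1.32), Ly6c1 (2.60 ± 1.80), Cldn5 (2.47 ± 1.23) and Slco1a4 (1.37 ± 0.377) followed, and no gap between neighbours in this order exceeded both of their SDs. Slco1a4 was above Pecam1 (0.843 ± 0.329) in 6 of 6 samples and by more than either SD. From Pecam1 down through Tek (0.808), Flt1 (0.774), Abcb1a (0.651) and Cdh5 (0.491), no gap between neighbours exceeded both of their SDs. Flt1, with 13.5 kilobases of exon, had more CPM than Ly6a in each of the 6 samples but a lower level per kilobase.

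The genes varied together in part. Over the 6 samples the mean log2 CPM of the 10 had an SD of 0.53, and the log2 ratio of a gene to the mean of the other 9 had a median SD of 0.39, which ran from 0.27 for Itm2a to 0.82 for Tek. Counting error of the single gene alone would give a median SD of 0.18 in log2 CPM, which leaves out the counting error of the other 9. Among all genes tested, the median SD of the log2 ratio to the mean of the 10 was 0.64, and 2.05% of genes other than the 10 lay below 0.39. Of the 4742 other genes with mean CPM within the range of the 10, 2.93% did. A gene that did not vary would have 0.53 by this measure, so genes with steady levels lie above 0.39. The 10 were each compared with the other 9, and all other genes with the mean of all 10. The tightest of the 45 pairs was Flt1 with Ly6a, whose ratio had an SD of 0.19, and the loosest was Tek with Ly6c1 (1.15). Of the 23 other endothelial markers tested, 6 lay below 0.39, namely Sox17, Esam, Egfl7, Cyyr1, Adgrf5 and Nos3, and so did 4 of 11 neuron markers, 0 of 16 mural markers and 0 of 12 astrocyte markers. The 8 genes outside the 10 whose pattern was most like their mean were Cnn2 (0.10), Slc41a3, LOC105243282, Ms4a6d, Gad2, Bid, Sema3b and Atp6v1g2 (0.22), none of which is in the endothelial lists.

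**Figure D4:**
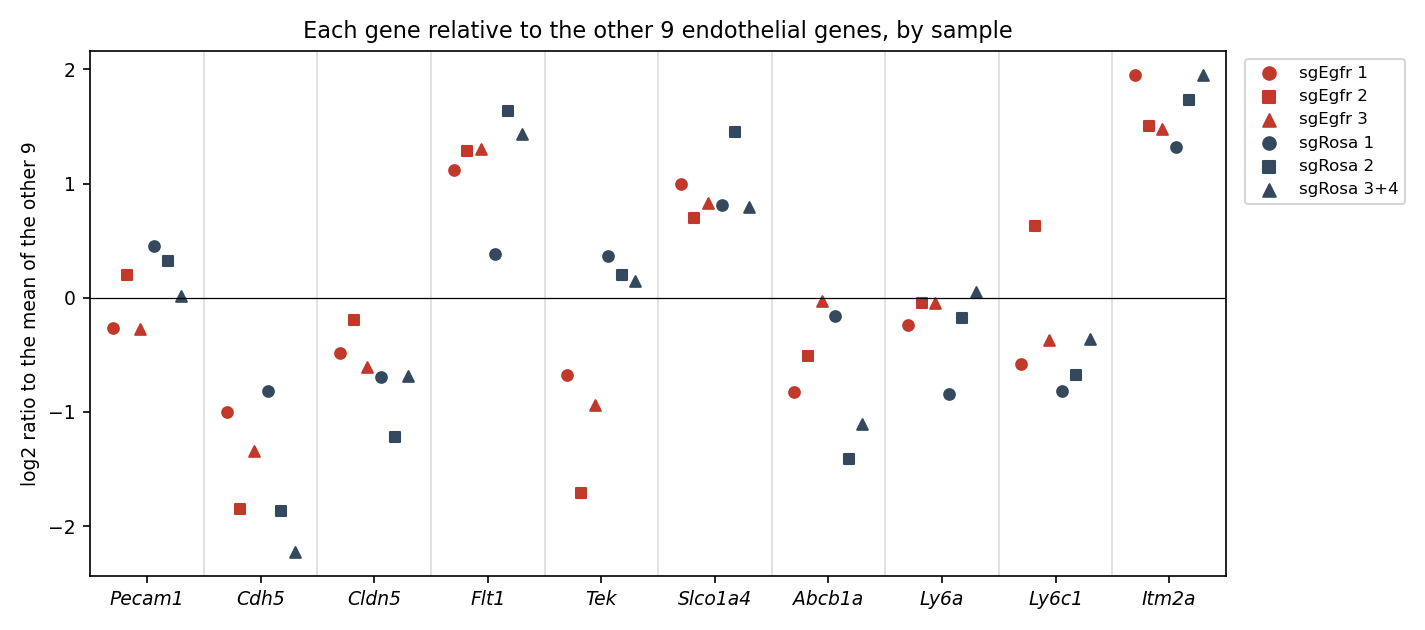
Log2 ratio of each of the 10 genes (horizontal axis) to the mean of the other 9 (vertical axis) in each of the 6 samples. For Tek the 3 sgEgfr samples lie between -1.71 and -0.67 and the 3 sgRosa samples between 0.14 and 0.37.

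The log2 ratio of Tek to the mean of the other 9 was lower in every sgEgfr sample than in every sgRosa sample. It was -0.67, -1.71 and -0.94 in sgEgfr 1 to 3, against 0.37, 0.20 and 0.14 in sgRosa 1, 2 and 3+4, a difference of -1.35 between the group means. The lowest ratio was in sgEgfr 2, where the other 9 were highest on average. This ratio was looked at after the values of Tek were seen, and the mean of the other 9 was itself higher on average in sgEgfr. Of the 14926 genes outside the 10, 25.4% had a log2 ratio to the mean of the 10 that was lower in every sgEgfr sample than in every sgRosa sample, and 0.0871% had one that was higher. For the other 9 genes the same difference between the group means ran from -0.38 for Pecam1 to 0.51 for Ly6c1, with -0.02 for Itm2a.

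Promoters are shown for the members whose groups did not overlap and that have an entry in the RefSeq promoter table (GRCm38.p6), and for Tek, which had the opposite sign. Of the Ly6c1 windows, the one with matches is printed. Each window has 300 bases, 250 before and 50 after the annotated start, written 5′ to 3′ on the gene's strand. Capitals mark matches on either strand to GGAAGT or AGGAAG, cores bound by ETS transcription factors, which act in endothelial cells.
Flt1: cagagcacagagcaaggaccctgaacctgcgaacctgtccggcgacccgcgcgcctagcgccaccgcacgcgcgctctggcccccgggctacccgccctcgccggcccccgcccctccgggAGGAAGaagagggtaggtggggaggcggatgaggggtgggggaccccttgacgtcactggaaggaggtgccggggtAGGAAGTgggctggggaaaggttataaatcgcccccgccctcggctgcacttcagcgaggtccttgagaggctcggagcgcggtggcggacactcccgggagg
Ly6c1: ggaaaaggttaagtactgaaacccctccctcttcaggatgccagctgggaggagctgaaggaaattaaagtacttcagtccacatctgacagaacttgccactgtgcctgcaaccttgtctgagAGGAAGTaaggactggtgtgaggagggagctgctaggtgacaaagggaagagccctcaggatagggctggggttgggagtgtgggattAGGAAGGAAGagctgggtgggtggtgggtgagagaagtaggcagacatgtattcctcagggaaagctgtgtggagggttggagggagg
Itm2a: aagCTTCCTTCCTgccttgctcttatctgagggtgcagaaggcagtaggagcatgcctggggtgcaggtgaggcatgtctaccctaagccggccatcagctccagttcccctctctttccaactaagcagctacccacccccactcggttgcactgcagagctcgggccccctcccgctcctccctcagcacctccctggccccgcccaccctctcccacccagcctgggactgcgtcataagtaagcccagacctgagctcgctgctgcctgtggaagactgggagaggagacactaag
Tek: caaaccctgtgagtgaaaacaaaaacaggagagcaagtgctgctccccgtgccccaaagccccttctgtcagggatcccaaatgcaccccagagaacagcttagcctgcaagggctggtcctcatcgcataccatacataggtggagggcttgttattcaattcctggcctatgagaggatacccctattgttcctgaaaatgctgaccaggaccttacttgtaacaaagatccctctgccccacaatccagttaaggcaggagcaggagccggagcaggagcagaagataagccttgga
The windows are chr5:147725962-147726261 for Flt1, chr15:75048614-75048913 for Ly6c1 and chrX:107403311-107403610 for Itm2a, all on the minus strand, and chr4:94739039-94739338 on the plus strand for Tek. Flt1 and Ly6c1 hold AGGAAGT, in which both motifs overlap, and the windows of Tek and Cldn5 have no match to either. Ly6c1 has a further, partly overlapping window at chr15:75048788-75049087, which is not printed and has 0 matches to either. Of the 10 genes, 7 had windows there, 8 in all, and AGGAAG was found in 5 of the 8, against 35.4% of 32851 windows of all genes. GGAAGT was found in 2 of 8 against 23.8%, the SOX core ATTGT in 2 of 8 against 31.0% and the forkhead core TGTTTA in 3 of 8 against 13.4%, both strands searched. A match describes these letters and not a bound site.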

How the data were processed

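The deposited values were raw counts of reads for each gene and library, without normalisation, held in 1 table and, with equal values, in 7 single files. Per the submitters' processing notes, the build was mm10 (GRCm38) and the tools included fastp 0.23.2, STAR 2.7.5c, featureCounts 2.0.1 and edgeR 3.42.4. Not given in the sources used here were the annotation, the strand setting and the handling of reads that fit several genes.

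The pair of sgRosa libraries close to sampling noise by chi-square (genes of 20 or more counts in the pair) was summed, which gave 3 samples against 3. Genes were kept with filterByExpr (minimum count 10, minimum total 15), TMM-scaled, and compared by the guide alone with edgeR 4.0.16 (glmQLFit, glmQLFTest, R 4.3.3). Benjamini-Hochberg adjustment ran over 14936 genes, and a gene was called under 0.05. SE and confidence intervals come from this fit. Log2 CPM used a prior count of 2. Shares are counts over the deposited total of the library, with 95% Wilson intervals. PCR reads without molecular identifiers are not independent molecules, so intervals cover counting error only.

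The 10 genes and all lists were chosen with earlier results of these data known. The genes named were the 10, Egfr, ligands, partners and paralogs of the 10 by role, up to 4 genes with the smallest p per list, and the 8 genes most like the mean of the 10. A gene that this rule would also name is not reported here. Positions, exon lengths and coding sequences come from GENCODE M21 and promoters from RefSeq, both on GRCm38. Alternatives were the 7 libraries as separate samples, other scalings (RLE, total count), no filter and a stricter filter (1 CPM in 3 samples), DESeq2 1.42.0, limma-voom (limma 3.58.1), the same with quality weights, a block on the replicate number, an adjusted p under 0.10, and each sample left out. For the summed share they were other denominators and the sum without Itm2a. The fit with sgRosa 3 alone in place of sgRosa 3+4 was added after seeing the data.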

Additional observations from a re-analysis of the deposited data

How the results depend on the processing

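Called genes numbered 0 under each of the 17 alternatives, over all genes and among the 10, with 230 to 923 of all genes and 1 to 7 of the 10 at an unadjusted p under 0.05. The direction of each of the 10 genes was kept in all 16 fits. The median log2 fold change of the 10 ran from 0.55 to 0.94 with single samples left out and from 0.71 to 0.86 otherwise, the log2 ratio of the summed shares from 0.46 to 0.88 and from 0.59 to 0.69, and the median SD of the log2 ratio to the other 9 from 0.34 to 0.43 with single samples left out.

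Signs turned for 7 genes of small or uneven difference, none of them among the 10, and the cause was not tested. With sgEgfr 1, 2 or 3 or sgRosa 1 or 2 left out, Egfr ran from -0.55 to 0.28, Kdr from -0.26 to 0.018, Tie1 from -0.12 to 2.50, Pgf from -0.12 to 0.27, Ocln from -1.25 to 1.34, Tjp1 from -0.24 to 0.067 and Abcb1b from -0.37 to -0.048. Without sgRosa 3+4 the values were 0.020 for Egfr, 0.081 for Abcb1b, 0.64 for Pgf and 1.43 for Ocln. Egfr had 0.18 with limma-voom, Ocln -0.50 with quality weights, and Pgf -0.019 with 7 separate libraries.

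Same-numbered samples did not all deviate together (r of -0.11, 0.52 and 0.55 for numbers 1 to 3). Pairs of unlike numbers gave r of -0.583 to 0.255. Deviations within groups of 3 depend on each other, so these r cannot tell whether the numbers pair samples. With the replicate number as a block, 0 genes were called, 705 had an unadjusted p under 0.05, among them 5 of the 10, and Egfr had 0.060. Depth limits the 10 genes, since Cdh5 had as few as 10 counts in a sample.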
